A study of Rattus norvegicus with 12 samples.

Results

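IC-A/CD-Trans is a small cluster of kidney nuclei whose name, given by the authors, joins the type A intercalated cell (IC-A) with the collecting duct (CD), and its nuclei are called transitional after that name. Its members were taken as all nuclei that carry this name in the authors' low-level clustering, and no measured value was used to choose them here. There were 363 such nuclei among the 217132 nuclei of the series, or 0.167%, and it was the smallest of the 25 clusters. The authors' coarser annotation placed all 363 in the intercalated type (IC, 11500 nuclei, of which they made up 3.16%) and all 363 in type A at the middle level.

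The collecting duct holds 2 kinds of cell side by side. Principal cells take up sodium and, through the water channel Aqp2, water, whereas intercalated cells handle acid and base: type A cells secrete protons and return bicarbonate to the blood through the exchanger Slc4a1, and type B cells secrete bicarbonate. Cells that carry features of both kinds have been described in rodent kidney and are usually called transitional or intermediate, with Notch signaling among the pathways known to separate the fates. The gene counts of the nuclei were not analysed here, so the name could not be checked against Slc4a1 and Aqp2, and the cluster is described by its size, its position in the map, and the values deposited for each nucleus.

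Single-nucleus RNA sequencing was carried out on frozen kidney from 12 male ZSF1 rats (ZSF1-LeprfaLeprcp/Crl), with 3 rats in each of 4 groups. Lean rats received no treatment and no vehicle. Obese rats, a model of diabetic kidney disease, entered a 12-week course at 13 to 14 weeks of age and were given vehicle, the soluble guanylate cyclase activator BAY 1101042 (runcaciguat, sGCact) at 3 mg/kg 2 times per day, or the soluble guanylate cyclase stimulator BAY 1165747 (sGCstim) at 3 mg/kg 1 time per day. All rats of the strain were kept on the same high-energy chow. The paper treats lean against obese as a difference in genotype. The lean and the obese vehicle rats thus differ in genotype, in phenotype and in dosing with vehicle, which cannot be told apart. The rats are named below by the identifiers in the deposited table, which give their group but not the replicate number of the sample entries. A rat contributed 10488 to 43484 nuclei and 11898496 to 49272672 unique molecular identifiers (UMIs, counts of distinct RNA molecules), and the 363 transitional nuclei together held 903907 UMIs.

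The transitional nuclei did not form a single body in the authors' 2-dimensional map. They lay in 2 areas separated by an empty stretch of 6.70 map units along the horizontal axis. The first area, with 265 nuclei (73.0%), was a thin streak that ran out of the IC-A cluster. For all 265 the nearest center of any other cluster was that of IC-A. The second area, with 98 nuclei (27.0%), lay along the edge of the cluster of connecting tubule and principal cells (CNT/PC). Of these 98 nuclei, 85 were nearest to the CNT/PC center, 12 to that of the cluster of distal convoluted and connecting tubule cells (DCT/CNT) and 1 to that of the distal convoluted tubule (DCT). The border between the areas was set after the map was seen, and distances in such a map are a description and carry no test.

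**Figure D1:**
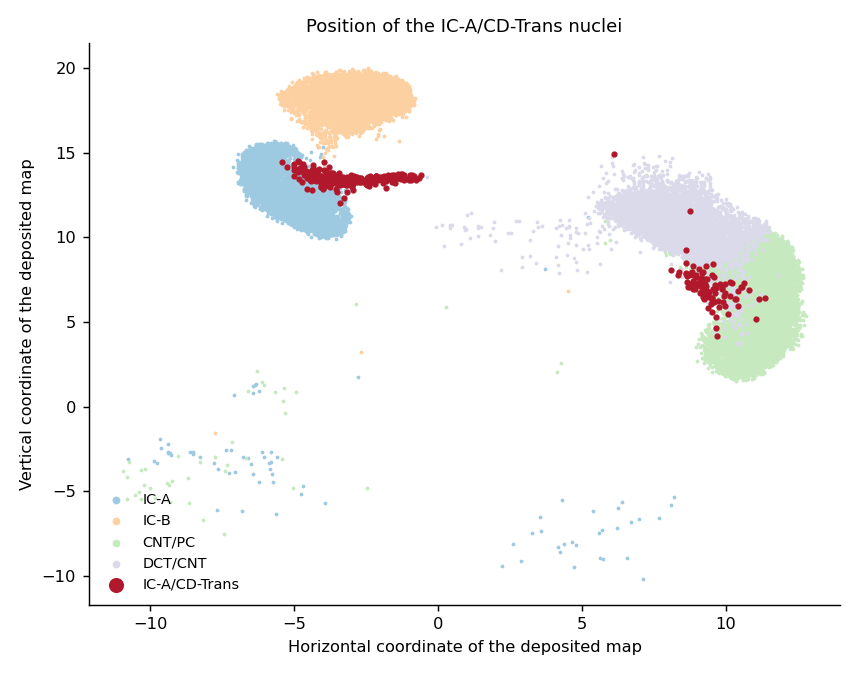
Each point is a nucleus at its horizontal and vertical coordinate in the authors' map (map units), with transitional nuclei in red and IC-A, IC-B, CNT/PC and DCT/CNT nuclei in pale colors. The red nuclei form a streak of 265 beside IC-A and a second group of 98 beside CNT/PC and DCT/CNT, with no red nucleus in between.

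The nuclei around the transitional nuclei showed the same division. Of the 15 nearest nuclei of each member, on average 68.0% belonged to the cluster itself, 12.5% to IC-A, 12.2% to CNT/PC, 5.42% to DCT/CNT and 0.735% to the ascending thin limb cluster (ATL). In the streak beside IC-A, 81.3% of the nearest nuclei were of the same cluster, 16.9% were IC-A and 0.176% were CNT/PC. In the area beside CNT/PC, 31.8% were of the same cluster, 44.8% were CNT/PC, 17.6% were DCT/CNT and 0.680% were IC-A. The second area was therefore interspersed with nuclei of other clusters, and the streak was largely made of transitional nuclei alone. IC-B nuclei, the other intercalated kind, made up 0.386% of the nearest nuclei. All 15 nearest nuclei were transitional for 134 members, all of them in the streak, and none was for 34 members, 25 of them in the second area.

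Both areas were found in 9 rats, and the other 2 rats with members had 2 and 1 in all, each in the streak. In lean rats, the second area held 2 of 6 members in RK1_4 (33.3%, 95% Wilson interval 9.68 to 70.0%), 1 of 18 in RK3_4 (5.56%, 0.988 to 25.8%) and 10 of 62 in RK5_4 (16.1%, 9.0 to 27.2%). In the obese vehicle group it held 19 of 70 members in RK16_4 (27.1%, 18.1 to 38.5%), 0 of 2 in RK9_4 and none in RK7_4, which had no members. With sGCact it held 3 of 11 in RK43_4 (27.3%, 9.75 to 56.6%), 5 of 10 in RK45_4 (50.0%, 23.7 to 76.3%) and 23 of 73 in RK46_4 (31.5%, 22.0 to 42.9%). With sGCstim it held 8 of 27 in RK57_4 (29.6%, 15.9 to 48.5%), 27 of 83 in RK58_4 (32.5%, 23.4 to 43.2%) and 0 of 1 in RK61_4. The intervals, which cover counting error only, overlapped between groups, and the share was not compared between groups because only 1 obese vehicle rat had more than 2 members.

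**Figure D2:**
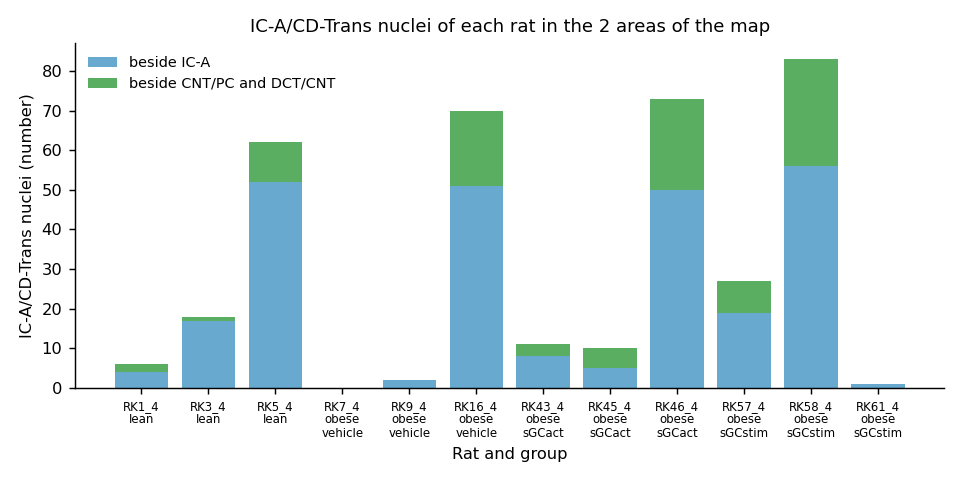
Bars give the number of transitional nuclei in each of the 12 rats, split by color into the 2 areas of the map, with rats ordered by group. RK5_4, RK16_4, RK46_4 and RK58_4 stand above 60 nuclei, and each of them has both areas.

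The number of transitional nuclei varied widely between rats of each group, whereas the group totals ran from 72 (obese vehicle) to 111 (sGCstim). The 4 rats with the most members, RK5_4 (62), RK16_4 (70), RK46_4 (73) and RK58_4 (83), came 1 from each group and held 288 of the 363, or 79.3%. After allowance for group means, the log odds of the share had an SD of 2.04 between rats (natural log, 8 residual degrees of freedom), the largest among the 25 clusters, with the counting error of this small cluster included. The same SD was 0.781 for IC-A, 0.977 for IC-B and 0.790 for CNT/PC. On this log odds scale the 4 differences between groups, given below, were -1.60, 1.61, 1.40 and 0.21 for the transitional nuclei.

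Among lean rats the share of all nuclei was 0.0360% in RK1_4 (6 of 16678, 95% Wilson interval 0.0165 to 0.0785%), 0.119% in RK3_4 (18 of 15155, 0.0751 to 0.188%) and 0.367% in RK5_4 (62 of 16911, 0.286 to 0.470%). These 3 intervals did not overlap except between RK1_4 and RK3_4. Among obese vehicle rats it was 0% in RK7_4 (0 of 10556, where the limit of 3 nuclei that a count of 0 allows is 0.0284% and the Wilson upper bound is 0.0364%), 0.00460% in RK9_4 (2 of 43484, 0.00126 to 0.0168%) and 0.534% in RK16_4 (70 of 13120, 0.423 to 0.673%). The obese vehicle group thus held 2 rats with almost no transitional nuclei and 1 rat above every lean rat. With sGCact the share was 0.0518% in RK43_4 (11 of 21232, 0.0289 to 0.0928%), 0.0463% in RK45_4 (10 of 21605, 0.0251 to 0.0852%) and 0.696% in RK46_4 (73 of 10488, 0.554 to 0.874%). With sGCstim it was 0.218% in RK57_4 (27 of 12358, 0.150 to 0.318%), 0.677% in RK58_4 (83 of 12251, 0.547 to 0.839%) and 0.00429% in RK61_4 (1 of 23294, 0.000758 to 0.0243%). Every group spanned low and high rats, and each pair of groups overlapped.

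**Figure D3:**
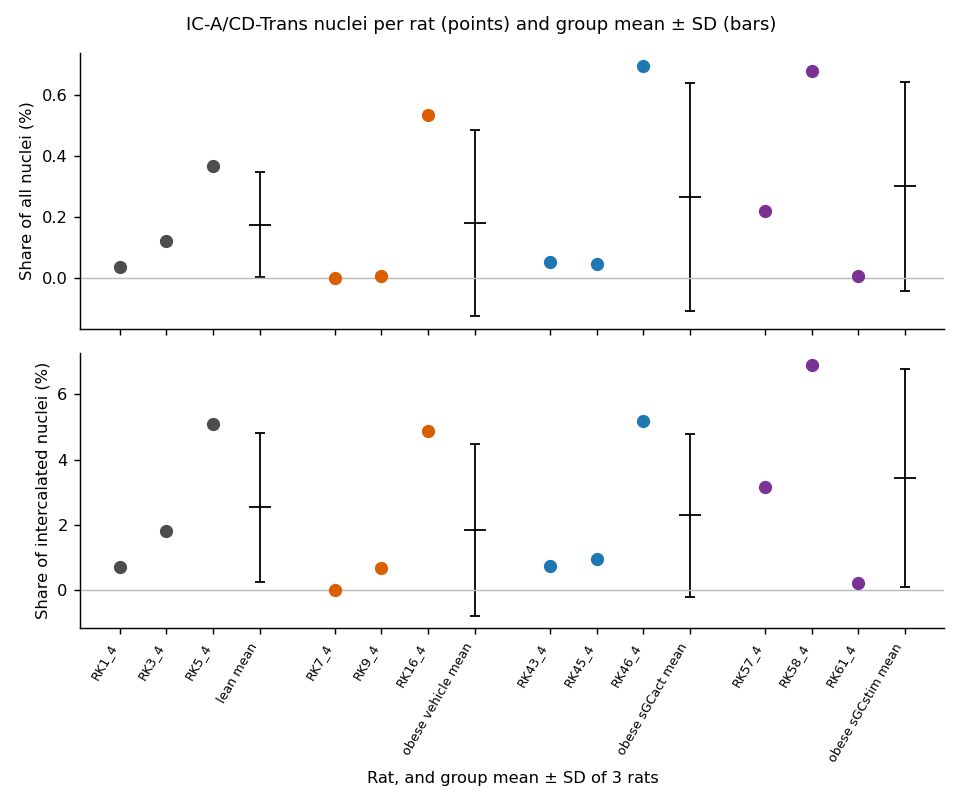
Points give the transitional nuclei of each rat as a percentage of all its nuclei (upper panel) and of its intercalated nuclei (lower panel), and bars give the mean ± SD of the 3 rats of a group. In each group 1 rat lies far above the other rats in the upper panel, at 0.367, 0.534, 0.696 and 0.677%.

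The first comparison asked whether the cluster was more or less common in obese than in lean kidneys. The lean rats had a mean share of 0.174% ± 0.172 (SD, n = 3) and the obese vehicle rats one of 0.179% ± 0.307 (SD, n = 3), whereas the log odds, which give more weight to low shares, differed by -1.60 ± 1.36 (SE, 95% interval -4.54 to 1.35, limma adjusted p = 0.410). Means and log odds thus differed in sign, and the share itself gave p = 1 in the exact two-sided permutation test, for which 3 rats against 3 cannot go below 0.1. In this comparison limma called 12.0% of the 25 clusters, and IC-A/CD-Trans was not among them. The size of the difference rested on single rats: it was -3.14 without RK16_4 (limma adjusted p = 0.0651), and -0.77 without RK7_4, -0.87 without RK9_4 and -1.04 without RK5_4 (limma adjusted p = 0.772, 0.955 and 0.640).

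The other comparisons asked whether either drug changed the share in obese rats, and they share the obese vehicle rats. With sGCact the mean share was 0.265% ± 0.374 (SD, n = 3), and its log odds exceeded those of the vehicle group by 1.61 ± 1.36 (SE, 95% interval -1.33 to 4.56, limma adjusted p = 0.496), with p = 0.5 in the exact permutation test of the share. With sGCstim the mean share was 0.300% ± 0.344 (SD, n = 3), and its log odds exceeded those of the vehicle group by 1.40 ± 1.36 (SE, 95% interval -1.54 to 4.35, limma adjusted p = 0.677), with p = 0.6 in the exact permutation test. Single rats moved both differences by over 1.5 times. For sGCact the difference was 3.16 without RK16_4 (limma adjusted p = 0.0756), and 0.74 without RK46_4, 0.79 without RK7_4 and 0.89 without RK9_4 (limma adjusted p = 0.815, 0.847 and 0.939). For sGCstim it was 2.95 without RK16_4 and 2.77 without RK61_4 (limma adjusted p = 0.105 and 0.357), and 0.44 without RK58_4, 0.58 without RK7_4 and 0.68 without RK9_4 (limma adjusted p = 0.913, 0.810 and 1.00). Between the drugs, which were given at the same dose but at different frequency, the log odds differed by 0.21 ± 1.36 (sGCact minus sGCstim, SE, 95% interval -2.73 to 3.16, limma adjusted p = 0.964), with p = 1 in the exact permutation test. In each of these 3 comparisons limma called 0% of the 25 clusters, and none reached an unadjusted p under 0.05. The intervals were wide enough to include a several-fold change of odds in either direction.

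Because proximal tubule nuclei made up 32.5 to 92.1% of a rat's nuclei, the cluster was also expressed as a share of intercalated nuclei alone. In lean rats the share was 0.715% in RK1_4 (6 of 839, 95% Wilson interval 0.328 to 1.55%), 1.81% in RK3_4 (18 of 993, 1.15 to 2.85%) and 5.10% in RK5_4 (62 of 1216, 4.00 to 6.48%). In obese vehicle rats it was 0% in RK7_4 (0 of 323, where 3 nuclei would be 0.929% and the Wilson upper bound is 1.18%), 0.683% in RK9_4 (2 of 293, 0.187 to 2.45%) and 4.86% in RK16_4 (70 of 1440, 3.87 to 6.10%). At 323 and 293 intercalated nuclei, the intervals of RK7_4 and RK9_4 overlapped that of the lean rat RK1_4. With sGCact it was 0.753% in RK43_4 (11 of 1460, 0.421 to 1.34%), 0.961% in RK45_4 (10 of 1041, 0.523 to 1.76%) and 5.18% in RK46_4 (73 of 1409, 4.14 to 6.46%). With sGCstim it was 3.17% in RK57_4 (27 of 852, 2.19 to 4.57%), 6.89% in RK58_4 (83 of 1205, 5.59 to 8.46%) and 0.233% in RK61_4 (1 of 429, 0.0412 to 1.31%). The spread between rats of a group remained, with 1 rat near 5% or above in each group.

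Group means of the share among intercalated nuclei were 2.54% ± 2.28 in lean, 1.85% ± 2.63 in obese vehicle, 2.30% ± 2.50 in sGCact and 3.43% ± 3.34 in sGCstim rats (SD, n = 3 each). The log odds differed by -0.82 ± 1.03 for obese minus lean (SE, 95% interval -3.13 to 1.48, limma adjusted p = 0.611), where 8.70% of the 23 clusters tested were called. They differed by 0.62 ± 1.03 for sGCact minus vehicle (95% interval -1.68 to 2.93, limma adjusted p = 0.797) and by 0.85 ± 1.03 for sGCstim minus vehicle (95% interval -1.46 to 3.15, limma adjusted p = 0.853). Between sGCact and sGCstim the difference was -0.22 ± 1.03 (95% interval -2.53 to 2.08, limma adjusted p = 0.991). In the last 3 comparisons 0% of the 23 clusters were called. Exact permutation tests of the share gave p = 0.5, 0.5, 0.6 and 0.7 in the same order. Without RK7_4, the rat with no members, the first 3 differences were 0.05, -0.25 and -0.02, each of opposite sign (limma adjusted p = 0.963, 0.923 and 0.983).

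Relative to type A intercalated nuclei, there were 1.17, 4.72 and 8.65 transitional nuclei per 100 IC-A nuclei in the lean rats RK1_4, RK3_4 and RK5_4. The obese vehicle rats RK7_4, RK9_4 and RK16_4 had 0, 1.22 and 12.5 per 100. With sGCact the numbers were 1.39 in RK43_4, 1.81 in RK45_4 and 12.0 in RK46_4, and with sGCstim they were 6.03 in RK57_4, 14.5 in RK58_4 and 0.403 in RK61_4. The ratio to IC-A therefore also varied widely between rats of a group.

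Across the 12 rats, the share of transitional nuclei was higher where IC-A and CNT/PC nuclei were more common. Pearson's r with the IC-A share of all nuclei was 0.84 (permutation p = 0.00048, adjusted 0.00072) and Spearman's rho was 0.91 (permutation p = 0.00018, adjusted 0.00052). With the CNT/PC share, r was 0.86 (permutation p = 7.0e-05, adjusted 0.00021) and rho was 0.88 (permutation p = 0.00035, adjusted 0.00052). Without RK9_4 and RK46_4, the rats farthest from the median on either axis, r was 0.80 and 0.82. With the median UMIs per nucleus of the rat, r was 0.22 (permutation p = 0.499, adjusted 0.499), rho was 0.56 (permutation p = 0.0624, adjusted 0.0624), and without RK1_4 and RK7_4 r was 0.53. The p-values were adjusted over these 3 relations, and 3 rats per group were too few to repeat them within a group.

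All 3 shares have the same denominator, which proximal tubule nuclei dominate. When each share was taken among nuclei outside the proximal tubule, an alternative chosen after the data were seen, r was 0.55 with IC-A (permutation p = 0.0627, adjusted 0.0627) and 0.62 with CNT/PC (permutation p = 0.0330, adjusted 0.0627), and rho was 0.53 (permutation p = 0.0780, adjusted 0.0780) and 0.66 (permutation p = 0.0237, adjusted 0.0474). The adjusted p of r was thus above 0.05 for both clusters, whereas that of rho was above it for IC-A and just below it for CNT/PC. The 3 rats with 0 to 2 members, RK7_4, RK9_4 and RK61_4, had 75.8, 92.1 and 70.5% proximal tubule nuclei and median mitochondrial percentages of 2.13, 3.74 and 3.34%, against 0 to 1.01% in the other 9 rats. RK1_4, with 6 members, had 38.6% proximal tubule nuclei, close to the 37.9% of RK5_4 with 62. The part of these differences in the share of transitional nuclei was not tested.

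**Figure D4:**
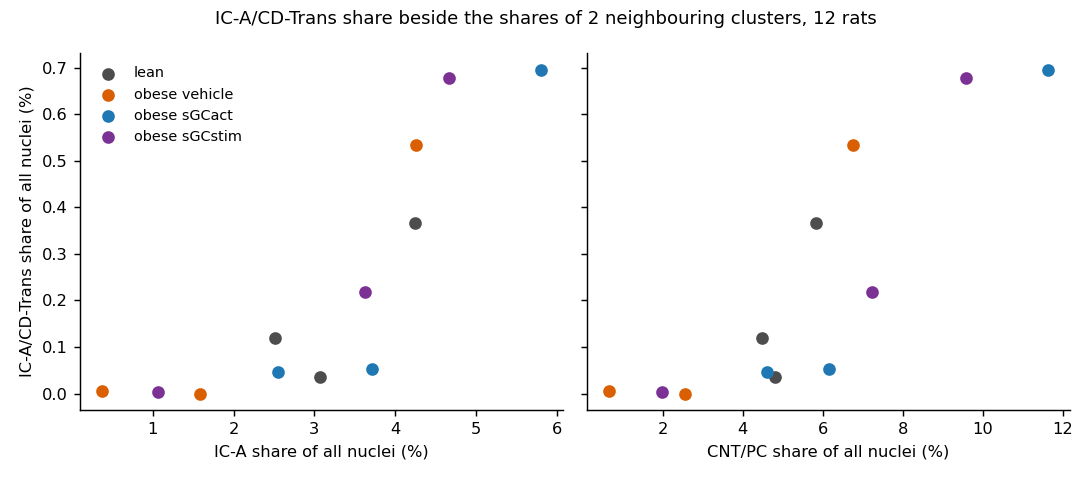
Each point is a rat, colored by group, with its transitional nuclei as a percentage of all nuclei on the vertical axis and its IC-A (left) or CNT/PC (right) nuclei as a percentage of all nuclei on the horizontal axis. The 4 rats with the highest transitional shares lie at IC-A shares above 4%, and the 3 with the lowest lie at IC-A shares below 2%.

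Transitional nuclei had more UMIs than IC-A, IC-B and CNT/PC nuclei in the pooled medians. DCT/CNT, also beside the second area, was not among the clusters compared. Pooled over rats, the members had a median of 2389 UMIs (quartiles 1917.5 and 2938, range 936 to 5092) and 1365 expressed genes. These pooled medians ranked 3 and 2 from the top among the 25 clusters. Within single rats with at least 5 members, the UMI rank ran from 1 in RK5_4 to 11 in RK1_4. The pooled median was 1652 UMIs and 1106 genes in IC-A, 1997 UMIs and 1194 genes in IC-B, and 1700 UMIs and 1045 genes in CNT/PC. Only 1 of the 363 members had fewer than 1000 UMIs. These values are given without a test, since the clusters were made from the gene counts of the same nuclei.

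The difference was present within single rats. In the 9 rats with at least 5 members, the median UMIs of the transitional nuclei were 2816.5 in RK1_4, 2667 in RK3_4 and 2713 in RK5_4 (lean), 2086.5 in RK16_4 (obese vehicle), 2206 in RK43_4, 2212 in RK45_4 and 2578 in RK46_4 (sGCact), and 2533 in RK57_4 and 2218 in RK58_4 (sGCstim). The IC-A medians of the same rats were 3117, 2071, 1679, 1349, 1671, 1655, 1482.5, 1441.5 and 1445, and those of CNT/PC were 2574.5, 1965.5, 1428, 1509.5, 2019.5, 1756, 1650, 1466 and 1541. Transitional nuclei were thus higher than IC-A in 8 of 9 rats, all but RK1_4, and higher than CNT/PC in 9 of 9. The mean ratio of medians was 1.45 ± 0.27 (SD, n = 9 rats) to IC-A, 1.42 ± 0.27 to CNT/PC and 1.17 ± 0.20 to IC-B. Among nuclei with 1000 to 3000 UMIs in each cluster, the members, 275 of which fell in this window, still had on average 174 more expressed genes than IC-A and 250 more than CNT/PC, in 9 of 9 rats each. Depth was not matched by this window, since the members in it still had 1.29 times the median UMIs of IC-A and 1.28 times those of CNT/PC, higher in 9 of 9 rats each.

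**Figure D5:**
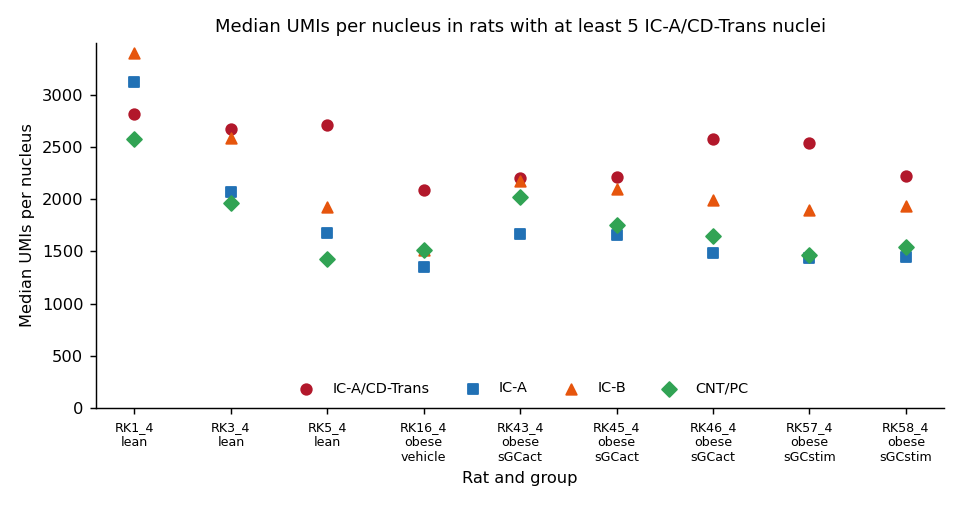
Points give the median UMIs per nucleus of the transitional cluster, IC-A, IC-B and CNT/PC in each of the 9 rats with at least 5 transitional nuclei, ordered by group. The transitional medians of 2086.5 to 2816.5 lie above CNT/PC in all 9 rats and above IC-A in all but RK1_4.

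A droplet that captures 2 nuclei yields about the sum of their UMIs, so the transitional medians were also set beside the sum of the IC-A and CNT/PC medians of the same rat. They were 0.495 (RK1_4) to 0.873 (RK5_4) of that sum and below it in 9 of 9 rats. The authors removed doublets before they deposited the table, and whether doublets remained among the transitional nuclei was not tested. Between the 2 areas of the map, the median was 2329 UMIs in the streak beside IC-A and 2584.5 in the area beside CNT/PC, and of the 6 rats with at least 5 nuclei in each area, the second was higher in 5. The exception was RK5_4, with 2806 UMIs in the streak and 2014 in the second area. Of the 363 members, 13 (3.58%) had a cell barcode that also occurred in another rat, against 5.42% of all nuclei, and no barcode was shared by 2 members.

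Mitochondrial transcripts were scarce in the transitional nuclei. Pooled over rats, the mean mitochondrial percentage was 0.0780%, against 0.387% in IC-A, 0.338% in IC-B and 0.273% in CNT/PC. Of the 363 members, 215 (59.2%) had no such transcripts, against 36.5% of IC-A, 41.5% of IC-B and 36.1% of CNT/PC nuclei. By rat the mean in transitional nuclei was 0.0343, 0.481 and 0.00576% in the lean rats RK1_4, RK3_4 and RK5_4, and 0.191% in RK16_4. It was 0.0968, 0.00767 and 0.0279% in the sGCact rats RK43_4, RK45_4 and RK46_4. In the sGCstim rats RK57_4 and RK58_4 it was 0.00429 and 0.0274%. It was lower than that of IC-A and of CNT/PC in 9 of 9 rats and lower than that of IC-B in 8 of 9. Averaged over these 9 rats, it was 0.0973%, against 0.394% in IC-A, 0.196% in IC-B and 0.294% in CNT/PC. The differences were -0.296 ± 0.294, -0.098 ± 0.234 and -0.196 ± 0.238 in the same order (SD, n = 9 rats). The pooled IC-B mean also includes RK61_4, a rat with 1 member, whose IC-B nuclei averaged 3.65%. Within 1000 to 3000 UMIs the transitional nuclei were lower than IC-A in 8 of 9 rats and than CNT/PC in 9 of 9. Only 2 members exceeded 1%, against 575 of the 5714 IC-A nuclei.

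The cell cycle scores, which sum the expression of S phase and of G2M phase genes relative to other genes, differed from those of IC-A and CNT/PC by less than the SD between rats. The mean S score of the transitional nuclei exceeded that of IC-A by 0.0011 ± 0.0142 (SD, n = 9 rats; higher in 7 of 9) and differed from that of CNT/PC by -0.0056 ± 0.0165 (lower in 6 of 9). Their mean G2M score differed by -0.0127 ± 0.0089 from that of IC-B (lower in 9 of 9), by -0.0052 ± 0.0090 from that of IC-A (lower in 6 of 9) and by -0.0036 ± 0.0089 from that of CNT/PC (lower in 5 of 9). Pooled over rats, the authors' phase calls put 42.1% of the members in G1, 38.0% in S and 19.8% in G2M. For IC-A nuclei the percentages were 38.3, 33.8 and 27.9%. Within rats, the percentage called G2M differed from that of IC-A by -8.4 ± 9.6 (SD, n = 9 rats; lower in 8 of 9). The percentage called S differed by -0.43 ± 14.0 (higher in 7 of 9) and that called G1 by 8.8 ± 21.4 (higher in 6 of 9). RK1_4, whose 6 members were all called G1, gave the extremes of -30.1 for G2M, -32.7 for S and 62.8 for G1. These averages and SDs thus lean on a rat with few members. The scores and calls were made at the full depth of each nucleus, and they are not read here as cycling.

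The values per nucleus were then compared between groups, with rats that had at least 5 members. This left 3 lean, 1 obese vehicle (RK16_4), 3 sGCact and 2 sGCstim rats, so each contrast with the vehicle group rests on a single rat that is assumed to vary like the others. Group averages of the median UMIs were 2732 ± 77 (SD, n = 3) in lean, 2086.5 in the 1 obese vehicle rat, 2332 ± 213 (SD, n = 3) in sGCact and 2375.5 ± 223 (SD, n = 2) in sGCstim rats. Among these 9 rats the 3 lean rats lay above the 6 obese rats, with and without drug, but the obese vehicle rat RK9_4, left out with 2 members, had a median of 2996, above every lean rat. In log2 units the difference was -0.39 ± 0.33 for obese minus lean (SE, limma adjusted p = 0.379), where 16.7% of the 24 clusters tested were called. The same difference was -0.50 in IC-A, -0.57 in IC-B and -0.31 in CNT/PC, and that of the transitional nuclei was -0.13 when every rat with at least 1 member was kept (limma adjusted p = 0.672). It was 0.16 ± 0.33 for sGCact minus vehicle (limma adjusted p = 0.837, 4.17% called), 0.18 ± 0.35 for sGCstim minus vehicle (limma adjusted p = 0.956, 0% called) and -0.03 ± 0.26 for sGCact minus sGCstim (limma adjusted p = 0.958, 4.17% called). The exact permutation test of the last contrast gave p = 1.

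Neither the mitochondrial percentage nor the cycle scores of the transitional nuclei passed the test in any contrast. The log2 mitochondrial percentage (with 0.1 added) differed by 0.52 ± 1.17 for obese minus lean, -1.06 ± 1.17 for sGCact minus vehicle, -1.33 ± 1.24 for sGCstim minus vehicle and 0.27 ± 0.92 for sGCact minus sGCstim (SE, limma adjusted p = 0.840, 0.590, 0.442 and 0.809). Over all clusters 0% were called in the first 3 and 4.17% in the last. For obese minus lean the value was 1.29 without RK3_4, 0.23 without RK1_4 and 0.06 without RK5_4, and it was 1.52 with 0.01 and 0.04 with 1 added in place of 0.1 (limma adjusted p = 0.538, 0.928, 0.961, 0.684 and 0.946). The mean S score differed by 0.0150 ± 0.0128, 0.0074 ± 0.0128, 0.0126 ± 0.0135 and -0.0052 ± 0.0101 in the same order (SE, limma adjusted p = 0.724, 0.740, 0.507 and 0.680), with 0% of clusters called in each. For obese minus lean the S score difference was 0.0237 without RK5_4 and 0.0054 without RK1_4 (limma adjusted p = 0.437 and 0.964). The mean G2M score differed by -0.0037 ± 0.0086, 0.0057 ± 0.0086, 0.0028 ± 0.0091 and 0.0030 ± 0.0068 (SE, limma adjusted p = 0.795, 0.630, 0.955 and 0.842), with 25% of clusters called in the first and 0% in the others. For sGCact against sGCstim, where 3 and 2 rats remained, exact permutation tests gave p = 0.4 for the mitochondrial percentage and 0.6 for each score.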

How the data were processed

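Per the labels and the study's methods, the authors prepared 10x Chromium 3′ libraries of nuclei, aligned reads to rn6 with Cell Ranger (version 6 per the labels, an earlier version per the methods) with a custom annotation that includes introns, corrected ambient RNA with SoupX, removed doublets with DoubletFinder, kept nuclei with 200 to 3000 genes and at most 15% mitochondrial transcripts in Seurat, corrected batches with Harmony, and clustered and named the nuclei. The authors deposited a table of 217132 nuclei, used here, with UMIs and expressed genes as whole-number counts without normalization, made after the ambient RNA correction as the methods describe it, mitochondrial transcripts in percent of UMIs, phase scores as scores without a fixed range, and cluster names, group names and map coordinates. Gene counts were not analysed here, 0 columns of other samples were set aside, and the authors' test of cell proportions was not repeated. The labels name no batch.

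Group and rat were read from the table. For 108 nuclei the low-level cluster and the high-level type disagreed, none of them an IC-A/CD-Trans nucleus. Shares were compared over rats as log odds (natural log, 0.5 nuclei added to each side) with limma 3.58.1 in R 4.3.3, fitted over all clusters and 12 rats with Benjamini-Hochberg adjustment over the clusters of a contrast and a threshold of 0.05. For values per nucleus, rats with under 5 nuclei of a cluster were left out, and the log2 median UMIs, the log2 of the mean mitochondrial percentage with a pseudocount of 0.1, and mean scores were fitted likewise. Exact two-sided permutation tests and correlations with 100000 permutations used scipy 1.17.1, and edgeR 4.0.16 on numbers of nuclei was an alternative. The scripts were checked on simulated data. P-values measure the spread between rats, 1 kidney sample each. IC-A, IC-B and CNT/PC were compared by a rule set with the design, and up to 5 clusters with the largest shares of neighbors in the map could be named. DCT, the nearest center of 1 nucleus, was named after its values were seen. The members, lists and tests were chosen with earlier results of these data known.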

Additional observations from a re-analysis of the deposited data

How the results depend on the processing

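No paired analysis was possible because the table's columns carry rat identifiers and no replicate numbers, so no replicate block could be fitted. Nor does the paper describe a pairing: the groups were different rats, and the obese rats were assigned to vehicle or drug at random. The replicate numbers of the sample entries count rats within a group, and nothing given links equal numbers across groups. None of the 24 results tested by contrast passed the adjusted threshold under any of the 132 alternatives or the 228 fits without 1 rat, with a lowest adjusted p of 0.0651. Several differences, each with a 95% interval that includes 0, turned sign, and the causes were not tested. For the share among all nuclei, obese minus lean turned with edgeR to 0.019 (total as library size) and 0.062 (TMM), and sGCact minus sGCstim to -0.0026 (arcsine) and -0.135 (edgeR, total). With all rats that had at least 1 nucleus, median UMIs turned to -0.10 and -0.11 for sGCact and sGCstim minus vehicle and to 0.0024 between the drugs, mitochondrial percentage to -0.12 for obese minus lean and -0.067 between the drugs, the S score to 0.0011 between the drugs and the G2M score to -0.0029 for sGCstim minus vehicle. With mean and median exchanged, UMIs and S score between the drugs were 0.0039 and 0.0058 and the G2M score for sGCstim minus vehicle was -0.00062.

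Leaving out 1 rat at a time gave, for the share among all nuclei, -3.14 to -0.77 for obese minus lean, 0.74 to 3.16 for sGCact minus vehicle, 0.44 to 2.95 for sGCstim minus vehicle and -1.16 to 1.18 between the drugs. Within intercalated nuclei it gave -1.70 to 0.049 for obese minus lean, -0.25 to 1.51 for sGCact minus vehicle, -0.022 to 1.73 for sGCstim minus vehicle and -1.11 to 0.42 between the drugs. Between the drugs it gave -0.12 to 0.068 for UMIs, -0.0119 to 0.0015 for the S score and -0.00094 to 0.0069 for the G2M score, which ran from -0.0112 to 0.00072 for obese minus lean and -0.0011 to 0.0067 for sGCstim minus vehicle. Among nuclei outside the proximal tubule, r fell to 0.55 with IC-A and 0.62 with CNT/PC (permutation p = 0.0627 and 0.0330, both 0.0627 adjusted). There rho was 0.53 and 0.66 (permutation p = 0.0780 and 0.0237, adjusted 0.0780 and 0.0474). The log ratio to CNT/PC nuclei was also added after the data were seen and turned no sign. With a pseudocount of 0.01 the log2 mitochondrial percentage differed by 1.52, -2.27, -3.12 and 0.84 in the order of the contrasts. The descriptions by cluster and map neighbors moved by less than 1 SD between rats. With 0 to 83 members per rat, counting error limits shares in the rats with few members.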
